A study of Dicentrarchus labrax with 35 samples.

Results

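The 200 probes described here were the ones whose signal varied most between the sexually undifferentiated gonads of fast-growing European sea bass (Dicentrarchus labrax), among probes whose mean level was about the same before and after sex differentiation. They were chosen from the 24200 sea bass probes of the array, which stand for 11705 targets (the contig or single cDNA read a probe was designed on), by the log2 values that the authors deposited. A probe was eligible when its mean over the 15 undifferentiated gonads was at least 8, when the mean over the 15 testes of FF, SF and SS was within 0.5 of it, and when the mean over the testes FS1, FS2 and FS4 was within 0.5 of the mean over those 15 testes. This left 3489 probes of 2191 targets. For each target the probe with the largest standard deviation (SD) over the 7 gonads of group F was kept, and the 200 probes with the largest SD became the members. The spread within F and the flat means are therefore the rule itself and are described without a test.

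Each array held the RNA of the whole gonad of 1 fish. At the first sampling (T1, 133 days post fertilization) group F held 7 fish of the fast-growing end of the length distribution and group S held 8 fish of the slow-growing end, all with undifferentiated gonads. At the second sampling (T2, 332 days post fertilization in the labels) there were 5 testes each of slow growers that were then overfed (SF), fast growers kept growing fast by overfeeding (FF), fast growers whose food was then reduced (FS) and slow growers kept growing slowly by reduced food (SS). All fish were reared at first at a temperature known to leave the sex ratio unaffected, and only males were taken at T2. The future sex of the T1 fish was unknown, and the study found more females in the groups derived from F than in those from S. The groups are defined by growth and feeding and not by the stage of the gonad. By the paper's account each T2 group had its own tank, so feeding and tank cannot be told apart at T2.

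In sea bass the gonad stays undifferentiated for months after hatching, and the onset of ovarian or testicular differentiation follows body length more closely than age. A gonad at this stage holds primordial germ cells, somatic cells that will become Sertoli or granulosa cells, steroid-producing cells, vessels and blood, and it lies against other tissues in the body cavity. In whole gonads, more cells of a type and more RNA per cell cannot be told apart. No source used here pairs the targets with gene names, so members are given by probe and target, no gene role is stated, and the presence of gonadal or other cell types could not be checked by marker genes.

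The arrays held 43803 sea bass spots in 532 rows and 85 columns. The share of spots well above background lay between 43.2% (F6) and 71.5% (F7) in F, between 56.4% and 74.4% in S and between 67.2% and 87.8% at T2. F1 to F4 shared a slide, and F5, F6 and F7 shared another with S1. S2, S3 and S4 shared a slide with FF2, and S5 to S8 had a slide of their own. All F arrays and S1 to S4 were scanned on one day and S5 to S8 on the other. Of the T2 arrays, FF2 was scanned on the day of F and all others on the day of S5 to S8. No 2 arrays held the same values (highest correlation 0.989).

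Over F1 to F7 the deposited values of the members had SDs between 0.605 and 1.93 log2 units, with a median of 0.75, against a median of 0.32 over the eligible targets. The last 2 members, CUST_5765_PI415922062 and CUST_9213_PI416070213, had SDs of 0.606 and 0.6054, and the first 2 probes outside, CUST_17732_PI416070213 and CUST_15810_PI416070213, both had 0.6038, so the limit lay within a continuous range. Of the members, 62 were contigs (31.0%, against 31.6% of the eligible targets and 28.2% of all targets), and the others were single cDNA reads. The T1 mean of the members had a median of 8.58, with a range of 7.92 to 18.14, against medians of 8.65 for the other eligible targets and 8.49 for all probes. Of the members, 29.5% were well above background on all 15 T1 arrays, against 44.1% of the other eligible targets. A single spot measured 65 members (32.5%, against 34.2% of the other eligible targets), and 135 members had 2 spots.

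The variation within F was not shared out evenly over the fish. F7 was the array farthest from the F median for 80 members, F4 for 33, F6 for 31, F5 for 23, F2 for 15, F3 for 11 and F1 for 7. In 151 members the farthest array was above the median and in 49 below it. A high array also lifts the T1 mean, which had to be at least 8, so the rule itself can favour deviations above the median. CUST_287_PI416070213, CUST_15510_PI416070213 and CUST_8570_PI416070213, for example, had medians over F of 7.44, 7.53 and 7.65. Members that met the limit only through a high array were not counted. F7 was at least 2-fold above the median in 70 members, against 5.06% of all probes, and at least 2-fold below it in 26, against 3.93%. F4 was 2-fold above in 48 members (3.01% of all probes) and below in 13 (1.17%). F6 was above in 32 (2.29%) and below in 3 (0.496%), and F5 above in 22 (1.5%) and below in 3 (0.413%). F3 was above in 9 members (2.52%) and below in 6 (0.727%), F2 above in 10 (1.76%) and below in 6 (1.12%), and F1 above in 8 (1.01%) and below in 2 (1.05%). These counts describe what the rule selected. The principal components of the members within F restate the same chosen values and are no separate evidence. The first took 51.2% of their variance and set F7 (loading 0.73) and F4 (0.42) against F6 (-0.38) and the rest. The second, with 16.2%, set F6 (0.64) and F5 (0.33) against F2 (-0.55).

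**Figure D1:**
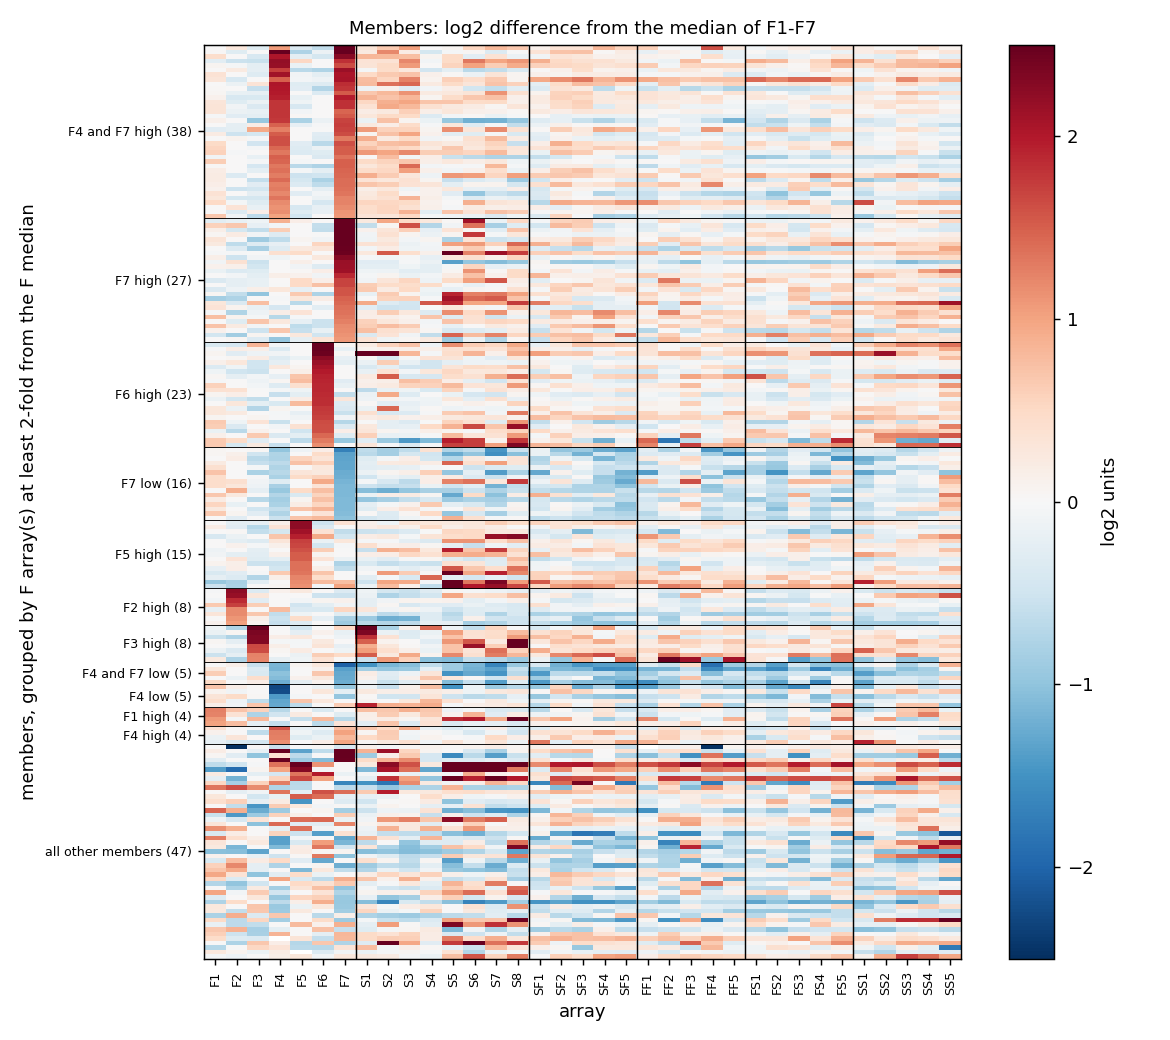
Log2 difference of each of the 200 members (rows) from its median over F1 to F7, on all 35 arrays (columns, in groups F, S, SF, FF, FS and SS), with red above and blue below that median. Members are grouped by the F arrays at least 2-fold from the median, with the number of members in brackets, and the bands of colour in F are the pattern groups of 38, 27, 23, 16 and 15 members.

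By the arrays that were at least 2-fold from the F median, the largest pattern group held 38 members that were high in both F4 and F7. Their median level was 9.65 in F4 and 9.6 in F7, against 7.69 to 8.28 on the other 5 F arrays. High in F7 alone were 27 members, with a median of 10.35 in F7 against 8.06 to 8.44 elsewhere in F. Low in F7 alone were 16 members, with 8.34 in F7, against 9.64 to 10.16 in F1, F2, F3, F5 and F6, and 8.89 in F4. F6 alone was high in 23 members (10.01, against 7.89 to 8.24 elsewhere) and F5 alone in 15 (10.01, against 7.94 to 8.51). Smaller groups were high in F2 alone (8 members), in F3 alone (8), in F1 alone (4) and in F4 alone (4), or low in F4 and F7 (5) and in F4 alone (5). In 18 members no array was 2-fold away, and the other 29 had patterns held by fewer than 4 members.

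F4 and F7 also went together over all sea bass probes, the members included. Of these probes, 1225 were at least 2-fold above the F median in F7 and 728 in F4, and 468 were above in both, which is 38.2% of the F7 list and 64.3% of the F4 list. Members made up 42 of the 468. Below the median there were 950 probes in F7 and 284 in F4, of which 141 were shared (14.8% of the F7 list and 49.6% of the F4 list). F4 and F7 lay on different slides. The probes of the array are not independent of each other, and no test was made of this overlap. Only this pair of F arrays was counted, so the overlap is not shown to be particular to F4 and F7. Some spots at least 4-fold above their median in F4 were also that high in F3 and F6.

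The member CUST_287_PI416070213 (target cDN22P0002I01.F.ab1) had the second largest SD. Its log2 signal was 7.17, 7.25, 7.33, 8.32, 7.61, 7.44 and 12.06 in F1 to F7, against 7.68, 8.41, 7.92, 7.71, 7.47, 9.54, 7.3 and 7.96 in S1 to S8. F7 stood above every other array, and S6 was the highest S array. The other 2 probes of this target read 10.29 and 11.65 in F7, against at most 8.25 in the rest of F, and each had a correlation of 1.0 with the member over the 7 arrays.

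CUST_3088_PI416070213 (contig SeabassC-CL1960Contig1) read 8.91, 9.0, 8.12, 8.26, 8.33, 7.73 and 12.75 in F1 to F7. In S it lay between 7.5 and 9.93, with a median of 8.14, S3 and S6 being the highest. Its companion probes read 13.16 and 12.77 in F7. CUST_2450_PI416070213 (SeabassC-CL159Contig1) was likewise high in F7 alone, at 11.8 against 7.48 to 8.71 in the other F gonads, and had a narrow range of 7.83 to 8.81 in S. CUST_11658_PI416070213 (cDN25P0001C15.F.ab1) read 12.69 in F7 and 10.06 in F4, against 8.38 to 9.26 in the other F gonads, and CUST_8570_PI416070213 (cDN22P0002K20.F.ab1) read 11.07 in F7 against 7.32 to 7.85. For the last of these S6 stood apart as well, at 9.41, while the other 7 S arrays lay between 7.51 and 8.04.

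Among the 10 members with the largest SD, 4 were at least 2-fold high in both F4 and F7, of which CUST_11658_PI416070213 was given above, and CUST_4127_PI416070213 and CUST_9534_PI416070213 were also low in another F array. CUST_4127_PI416070213 (SeabassC-CL2555Contig1) read 9.53, 9.34, 9.14, 11.96, 8.01, 8.7 and 12.41 in F1 to F7, against 10.21, 11.48, 9.88, 9.4, 9.34, 8.93, 8.53 and 9.4 in S1 to S8. In S the values of S1, S2 and S3 were the highest. CUST_9534_PI416070213 (cDN23P0002H08.F.ab1) read 9.57, 9.83, 9.84, 12.52, 8.92, 8.74 and 12.31 in F1 to F7, against 10.31, 10.69, 11.01, 9.41, 9.53, 9.51, 9.63 and 9.46 in S1 to S8, so that S1, S2 and S3 again lay above the other 5. CUST_15119_PI416070213 (cDN28P0004B23.F.ab1) read 10.78 in F4 and 10.59 in F7, against 7.2 to 8.0 in the other F gonads, and at most 9.17 in S (S2). The companion probes of these last 3 targets had correlations of 0.98 to 1.0 with the member over F.

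The member with the largest SD of all, CUST_15510_PI416070213 (cDN28P0006O19.F.ab1), read 7.14, 7.11, 8.38, 7.46, 7.53, 12.53 and 7.58 in F1 to F7, and 7.4 to 8.69 in S, with a median of 8.14. It was well above background in 2 of the 7 F gonads and in 7 of the 8 S gonads. Both of its spots were high in F6, by 5.03 and 4.97 log2 units. One companion probe was also high in F6 (11.97, against at most 8.85 elsewhere), and the other was not (7.02, within 6.82 to 7.02 over F).

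CUST_4047_PI416070213 (SeabassC-CL2496Contig1) varied in another way, since no single fish carried its spread. Its log2 signal was 8.66, 8.14, 10.12, 11.05, 12.35, 10.03 and 10.06 in F1 to F7, against 8.96, 12.12, 11.44, 8.76, 13.66, 12.79, 12.65 and 11.36 in S1 to S8. The values of both groups spread over more than 4 log2 units and overlapped. At T2 they lay closer together, between 9.74 and 11.26 in SF, 10.65 and 11.39 in FF, 10.02 and 11.31 in FS and 9.94 and 11.13 in SS. Of all members it also had the largest SD within S, 1.77, and both companion probes had a correlation of 0.99 with it over F.

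**Figure D2:**
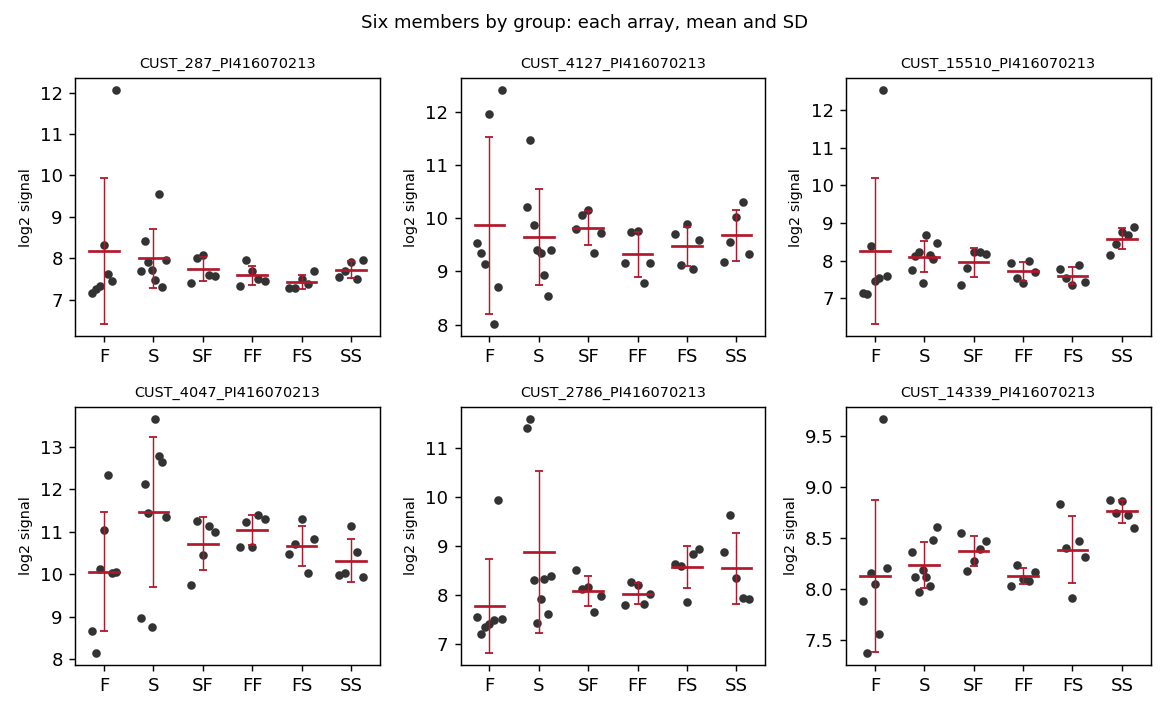
Log2 signal of 6 members in each of the 6 groups, with 1 point per array in order of its number and the mean and SD in red. CUST_287_PI416070213 is high in F7, CUST_4127_PI416070213 in F4 and F7, and CUST_15510_PI416070213 in F6, while CUST_4047_PI416070213 and CUST_2786_PI416070213 spread as widely in S as in F or more, and CUST_14339_PI416070213 is lower in FF than in SS.

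Each pattern could be checked against a second measurement on the same array, since the rule used the summary of a probe's spots and not their agreement. On the farthest F array, both spots were measured for 133 members, and they were called in agreement when they deviated to the same side and the smaller deviation was at least 0.5 times the larger. In 107 members they agreed and in 26 they did not. The outcome differed by array. Where F7 was the farthest, 56 of 59 pairs agreed, and where F4 was, 20 of 21. For F1, F2 and F3 all of 3, 8 and 8 pairs agreed. Where F6 was the farthest, 7 of 21 pairs agreed, and for F5 the count was 5 of 13. Over F5 and F6 together 12 of 34 pairs agreed, against 95 of 99 on the other 5 arrays.

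**Figure D3:**
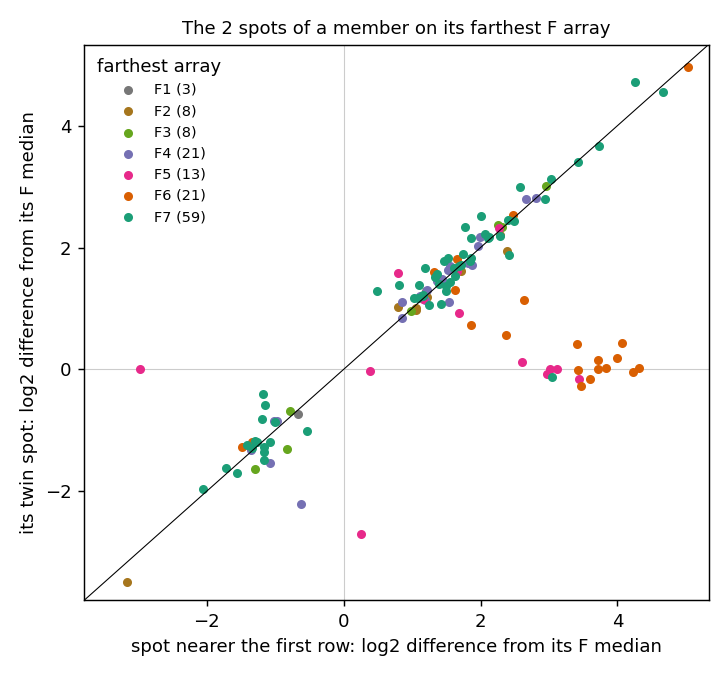
Deviation of each of the 2 spots of a member from its own median over F, in log2 units, on the F array farthest from the median (133 members, coloured by array). Points on the diagonal are pairs that read alike, and the points far from it are pairs that disagree, most of them pairs of F6 and F5 to the right, in which the twin lay closer to 0 than the first spot.

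The disagreeing spots lay in one part of the array. In 21 of the 26 members the deviating spot was in rows 1 to 30, where 5.05% of the sea bass spots lie, and of these 13 had F6, 6 had F5 and 2 had F7 as the farthest array. On F6 the spots of these 13 members lay in rows 6 to 27 and columns 39 to 47 and were 2.37 to 4.31 log2 units above their medians, whereas their twins elsewhere on the array were at -0.28 to 1.14. In CUST_6279_PI416070213 (SeabassC-CL4118Contig1), for example, the spot in row 7 and column 47 was 4.31 above its median on F6, and the spot in row 324 was at 0.02. On F5, 5 members had high spots in rows 16 to 27 and columns 22 to 39, at 2.6 to 3.44, with twins at -0.16 to 0.12. The same area was raised when all sea bass spots were counted, those of the members included. In rows 1 to 30 and columns 20 to 50, F6 had 13.93% of spots at least 4-fold above the F median, against 0.43% of its other spots, and F5 had 5.26% against 0.21%. F1 had 3.18% against 0.03%, although no member with F1 as its farthest array had its deviating spot in rows 1 to 30. On F7 the 1105 spots that high were spread over the array, with 3.07% in the area and 2.51% outside it. These limits of rows and columns were drawn after the positions had been seen.

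**Figure D4:**
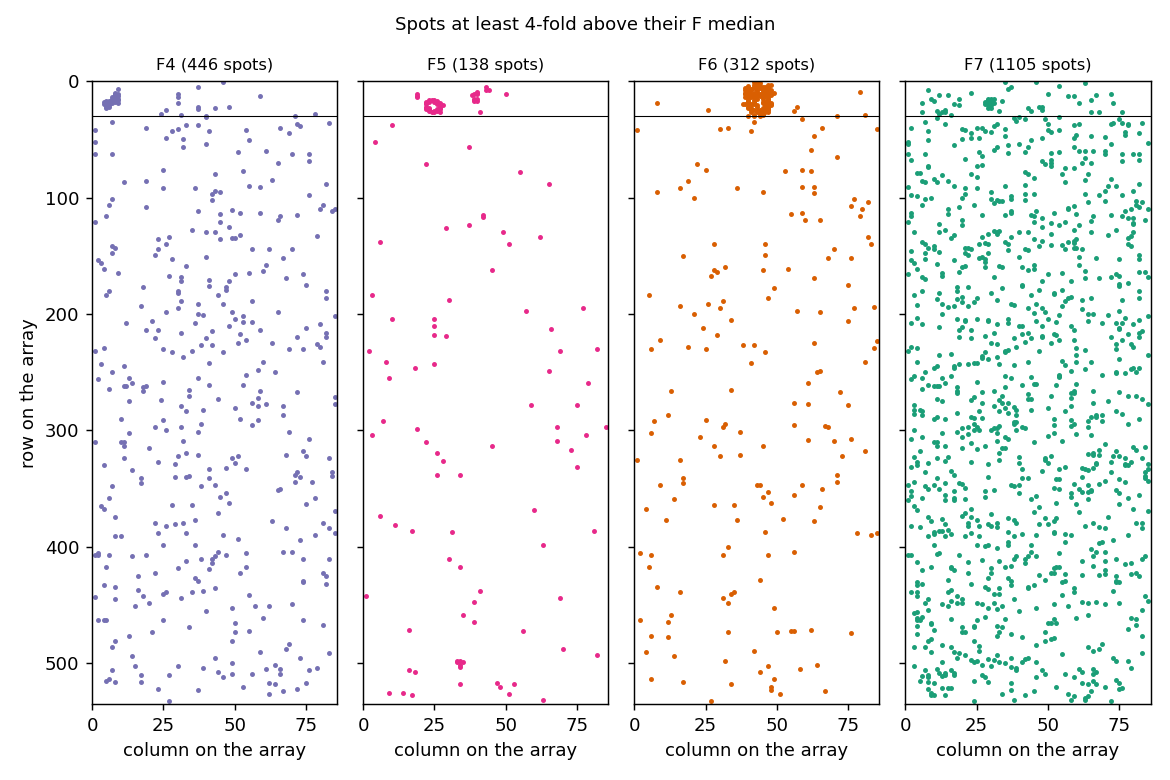
Position on the array, by row and column, of the sea bass spots at least 4-fold above their median over F, for F4, F5, F6 and F7, with a line under row 30. F6 and F5 have dense patches within the first 30 rows, which hold 133 of 312 and 51 of 138 such spots, F4 and F7 have smaller ones, and the other spots, most of those on each array, are scattered over the rest of it.

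Probes at other positions that were designed on the same target gave a further measurement. Of the 200 members, 134 had such probes, and the median correlation over the 7 F arrays between a member and the mean of the others was 0.97. It was 0.86 for the other 1296 eligible targets with further probes, whose chosen probe varied less. In 107 members it was at least 0.8, and in 15 it was under 0.3. By the farthest array the median was 0.98 for F7 and F4, 0.95 to 0.96 for F1, F2 and F3, 0.62 for F6 and 0.34 for F5. The other probes deviated to the same side and at least 0.5 times as far in 96 members. These were 87 of 101 where one of the other 5 arrays was the farthest, and 9 of 33 where it was F5 or F6. With both kinds of measurement together, 111 of the 135 members that had either were matched by twin spots or by other probes. The 65 members with 1 spot had no other probe, so that their patterns rest on 1 spot per array, and 20 of them had F5 or F6 as the farthest array, with the spot in the first 30 rows in 9.

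By pattern group, the 26 measured pairs of the F4 and F7 group all agreed, and other probes agreed for 25 of 28 members. In the group high in F7 alone the counts were 23 of 24 pairs and 22 of 24 members. In the group low in F7 they were 7 of 8 and 8 of 8. In the group high in F6 alone 4 of 16 pairs agreed and the other probes of 2 of 16 members, and in the group high in F5 alone 2 of 7 and 2 of 7. The groups high in F2 and in F3 had agreement in 6 of 6 and 5 of 5 pairs. Whether the position on the array accounts for the high signals of F5 and F6 was not tested.

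The spread of the members within S was not used to choose them. Unlike the F arrays, the S arrays were scanned on both days, and the part of scan day and slide in their spread was not tested. The median SD over S1 to S8 was 0.43, and from 0.22 at the 10th to 0.91 at the 90th percentile of the members, against 0.31 for the other eligible targets and 0.29 for all probes. In S, 139 of the 200 members had a range of at least 2-fold between the lowest and the highest array (69.5%), against 41.2% of the other eligible targets and 37.7% of all probes. Within F, where the rule chose them, the count was 198 of 200, against 36.7% of all probes. In 28 members the SD was larger in S than in F.

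At T2 the members were closer to the other probes. The T2 gonads were all testes, whereas the future sex of the T1 fish was unknown, and the part of this in the spread was not tested. Their median SD was 0.26 in SF, 0.26 in FF, 0.28 in FS and 0.29 in SS, against 0.2, 0.23, 0.3 and 0.22 over all probes and 0.22, 0.25, 0.24 and 0.24 over the other eligible targets. A range of at least 2-fold was found in 52 members in SF (26.0%, against 10.3% of the other eligible targets and 16.5% of all probes), in 59 in FF (29.5%, against 16.9% and 17.3%), in 46 in FS (23.0%, against 9.3% and 34.9%) and in 66 in SS (33.0%, against 19.4% and 21.0%). In FS the members thus lay above the targets under the same limits and below all probes. A range over 5 arrays is narrower by construction than one over 7 or 8, and the means of FS1, FS2 and FS4 had entered the rule, which the level in FS3 and FS5 had not.

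**Figure D5:**
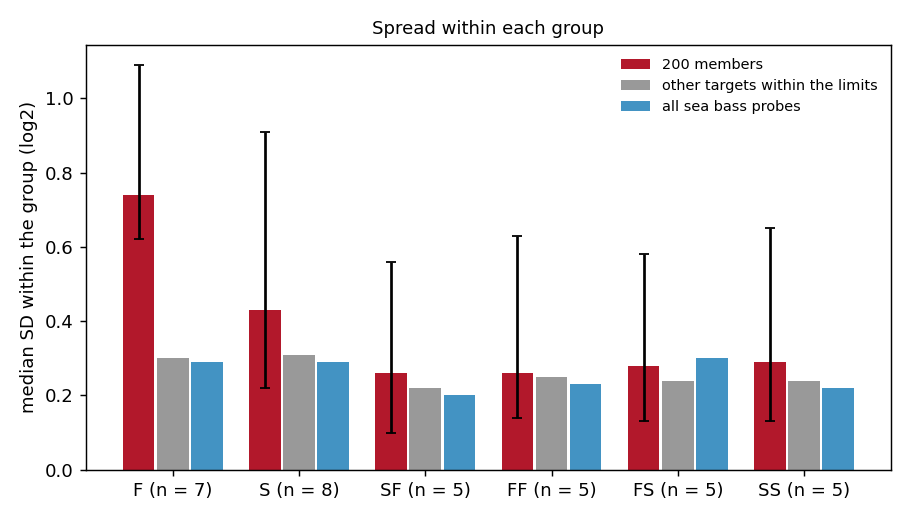
Median over probes of the SD within each group, in log2 units, for the 200 members (red, with bars from the 10th to the 90th percentile of the members), for the other eligible targets (grey) and for all sea bass probes (blue). The members stand at 0.74 in F and 0.43 in S, and between 0.26 and 0.29 in the testes.

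Members that were high in F4 and F7 kept some common order in S. The mean correlation between pairs of these 38 probes was 0.4 over the 8 S arrays and 0.19 over the 20 T2 arrays, against 0.01 and 0.06 over pairs of all members. These probes share arrays and a low level, and the values are descriptive. Similar values were found over S and T2 in the 4 members high in F4 alone (0.39 and 0.25) and the 5 low in F4 alone (0.35 and 0.32). The groups high in another single F array had -0.03 (F2) to 0.26 (F3) over S. In the group low in F7 alone the values were 0.18 and 0.43. S3 was the highest S array for 18 of the 38, S2 for 8 and S1 for 5, and S4 or S8 the lowest for 14 and 11. The median level of the group was 8.45, 8.67 and 8.63 in S1, S2 and S3, against 8.07 to 8.25 in S4 to S8, and in 16 members each of S1, S2 and S3 lay above all 5 others. S1, S2 and S3 were scanned on one day, which S4 shared and S5 to S8 did not. The level of the spike-in control probes was taken as their mean log2 signal minus the 75th percentile of the sea bass spots of the array. Within F and within S it was lower on the arrays where these members were high. It was -0.37 in F4 and -0.52 in F7, against 0.36 to 1.68 on the other F arrays, and 0.45, -0.17 and 0.037 in S1, S2 and S3, against 0.55 to 3.25 in S4 to S8. At T2 this order was not kept in every group. In FF the array with the lowest spike-in level, FF2 (-1.45), had the highest median of these members (8.25). In SF it was the array with the highest spike-in level, SF2 (0.4), that had the highest median (8.4). F4 and F7 also had the largest shares of spots well above background in F (68.3% and 71.5%), against 43.2% to 67.4% elsewhere in F, whereas in S the shares of S1, S2 and S3 (73.7%, 56.4% and 58.2%) lay within or near those of S4 to S8 (57.9% to 74.4%). The part of these in the pattern was not tested. The 5 members that were low in F4 and F7 went the other way. S4 was the highest S array in all 5, and the mean correlation between their pairs was 0.66 over S and 0.43 over T2.

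The group high in F7 alone had no such order over S as a whole (mean correlation 0.08). Its median level was highest in S6 (9.2), against 8.22 to 8.89 in the other S gonads. The highest S value lay in S5 for 7 of the 27, in S6 for 6 and in S8 for 5. In the group high in F6 alone S8 was the highest S array for 10 of 23, and S5 to S8 averaged higher than S1 to S4 in 18 of 23. In the group high in F5 alone the same was true of 12 of 15, with a median of 9.05 in S5 to S8 against 8.28 in S1 to S4. These arrays differ in scan day and slide, and gonad, scan day and slide cannot be told apart there. In the 8 members high in F3 alone, S1 was the highest for 4 and the range over S was at least 2-fold in all 8, with a median of 2.41 log2 units.

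CUST_2786_PI416070213 (SeabassC-CL1797Contig1), the member with the second largest SD within S (1.66), read 7.55, 7.19, 7.35, 7.4, 7.48, 9.93 and 7.5 in F1 to F7, against 11.41, 11.59, 8.31, 7.43, 7.92, 8.33, 7.61 and 8.38 in S1 to S8. One F gonad and 2 S gonads stood above the rest, and the other probes of the target read 9.17 and 9.38 in F6. It was well above background in 1 of 7 F gonads and 5 of 8 S gonads.

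The first question of the study at T1 was whether the gonads of fast and slow growers differed. For F vs. S, limma called none of the 200 members and none of the 24200 probes (0.0%) at a fold change of at least 1.5 and an adjusted P under 0.01. Over all probes, but not among the members, 94 were called with all 6 groups in 1 fit and 4 with array weights. With these limits the paper does report differentially expressed genes between fast and slow growers, unlike the main fit here. The cause of this difference was not tested. At an unadjusted P under 0.05 there were 21 members, 14 higher and 7 lower in F, against 4938 of all probes (20.4%). The median change of the members was 0.03 log2 units, as it was over all probes (0.03). Their median standard error was 0.3, against 0.16 over all probes, since the wide spread that chose them enters this test. In 37 members the means differed by at least 1.5-fold, against 8.2% of all probes, without a test. The F values that chose the members for their spread enter these means, so the rule itself can raise this count.

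The smallest P among the members was that of CUST_5463_PI416070213 (SeabassC-CL3574Contig1). It read 9.05, 10.29, 9.83, 9.17, 9.98, 10.74 and 8.89 in F1 to F7, against 8.77, 8.19, 9.44, 9.22, 8.78, 8.18, 8.41 and 8.99 in S1 to S8. F had the higher mean (9.71 ± 0.69, SD, n = 7) and S the lower (8.75 ± 0.46, SD, n = 8), but the groups overlapped, and with a difference of 0.96 (SE 0.28) limma gave an adjusted P of 0.117. With the S arrays of the scan day of F the difference was 0.8, with those of the other day 1.11, and between F5, F6 and F7 and the single S array on their slide it was 1.1. The other probes of this target had correlations of -0.13 and 0.11 with it over F.

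Against the 4 S arrays scanned on the other day, 3 of the 200 members were called, a smaller share than the 1248 of all 24200 probes. All 3 members were lower in F: CUST_15130_PI416070213 (-2.27 log2 units, limma adjusted P = 0.00941), CUST_20049_PI416070213 (-0.98, adjusted P = 0.00653) and CUST_3897_PI416070213 (-2.07, adjusted P = 0.00608). They were named after their values were seen. CUST_20049_PI416070213 had the smallest SD over F of all members in the values tested, 0.17, and that small spread enters the test. CUST_3897_PI416070213 (SeabassC-CL2395Contig1) read 9.45, 9.2, 9.99, 10.03, 11.14, 9.92 and 10.99 in F1 to F7, against 9.85, 10.76, 10.12, 9.35, 12.88, 12.0, 12.17 and 11.66 in S1 to S8. CUST_15130_PI416070213 (cDN28P0004C21.F.ab1) read 8.52, 7.55, 8.73, 9.3, 10.4, 9.75 and 8.74 in F1 to F7, against 8.5, 10.57, 9.76, 7.75, 12.04, 10.66, 11.63 and 10.75 in S1 to S8. In both, S5 to S8 lay above every F gonad, whereas the range of S1 to S4 overlapped with that of F, although S2 was also above every F gonad in CUST_15130_PI416070213. Twin spots and companion probes agreed for both on F5, their farthest array. Of the 1248 probes called in that comparison, 462 were higher and 786 lower in F. With S1 to S4, which were scanned together with F, no probe and no member was called. At an unadjusted P under 0.05 there were 7 of the 200 members, again a smaller share than the 1911 of all 24200 probes. The calls were made against S5 to S8 and not against S1 to S4, and gonad, scan day and slide cannot be told apart there. The spike-in level was 1.56 to 3.25 in S5 to S8, against -0.17 to 0.55 in S1 to S4 and -0.52 to 1.68 in F, and its part was not tested.

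At T2 the study asked whether growth had left a mark on the testis. For FF vs. SS, limma called 1 of the 200 members, lower in FF, against 24 of all probes (0.0992%). The paper reports a larger number of genes here under the same limits, and the cause of this difference was not tested. At an unadjusted P under 0.05 there were 43 members, 19 higher and 24 lower in FF, against 18.8% of all probes. In 20 members the means differed by at least 1.5-fold, against 6.98% of all probes. The called member was CUST_14339_PI416070213 (cDN27P0005N14.F.ab1), which read 8.03, 8.23, 8.1, 8.08 and 8.17 in FF1 to FF5, against 8.87, 8.75, 8.86, 8.73 and 8.6 in SS1 to SS5. The groups did not overlap. Its mean was 8.12 ± 0.08 in FF and 8.76 ± 0.11 in SS (SD, n = 5 each), a difference of -0.64 (SE 0.08, limma adjusted P = 0.00988). The call was lost with any one of the 10 arrays left out (adjusted P 0.0108 to 0.0442). It was also lost with slide as a random block (adjusted P = 0.0295) or the replicate number as a block (adjusted P = 0.0662), and no slide held both groups. The spike-in level was -1.45 to 1.87 in FF and 3.29 to 5.6 in SS, without overlap, and its part in this and the next comparison was not tested. This member was chosen through F6, where 1 of its spots was 3.43 above its median and the other at -0.01. Over F its correlations with the other probes of its target were 0.31 and 0.3.

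For SF vs. SS, which asked what extra food did to slow growers, limma called none of the members and none of all probes (0.0%). The paper, by contrast, lists differentially expressed genes for it, and why the results differ was not tested. Over all probes the count depended on the setting, with 51 called on the authors' matrix, 29 on the processed signal, 2 with an offset of 0, 64 with all 6 groups in 1 fit, 116 with array weights and 67 with SS1 left out. The spike-in level was -0.9 to 0.4 in SF and 3.29 to 5.6 in SS. At an unadjusted P under 0.05 there were 53 members, 22 higher and 31 lower in SF, against 17.8% of all probes, and 21 differed by at least 1.5-fold between means, against 5.17%. The smallest P was that of CUST_9213_PI416070213, which read 7.85, 7.83, 7.54, 7.87 and 7.88 in SF1 to SF5, against 8.22, 8.61, 8.58, 8.5 and 9.07 in SS1 to SS5. The groups did not overlap, with a difference of -0.8 (SE 0.14, limma adjusted P = 0.0709). On the slide that held both groups it was -0.54 (2 arrays each). With limma's array weights its adjusted P was 0.00923. CUST_9213_PI416070213 is the last member inside the limit. In F7, its farthest array, 1 spot in row 20 was 3.04 above its median and the twin at -0.13. Over F its correlations with the other probes of its target were -0.48 and -0.49. With SS1 left out 1 member was called, CUST_7065_PI416070213, lower in SF by -1.16 log2 units (limma adjusted P = 0.00792), which was named after its values were seen. On F6, its farthest F array, its spots were 1.32 and 1.6 above their medians.

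For SF vs. FF, limma called none of the members and none of all probes (0.0%). The paper likewise reports no differentially expressed gene there. At an unadjusted P under 0.05 there were 17 members, 12 higher and 5 lower in SF, against 5.8% of all probes, and in 5 the means differed by at least 1.5-fold, against 1.89%. The smallest P was again that of CUST_5463_PI416070213, which read 8.36, 8.52, 8.31, 8.31 and 8.52 in SF1 to SF5, against 8.97, 8.72, 9.45, 9.19 and 9.22 in FF1 to FF5. The difference was -0.71 (SE 0.13), with no overlap and a limma adjusted P of 0.777.

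The rule limited pooled means only, and not those of F against S, of SF, FF and SS against each other, or of FS3 and FS5. The medians over the members of the group means were 8.59 in F and 8.61 in S, and 8.47 in SF, 8.51 in FF, 8.46 in FS and 8.55 in SS, against 8.49 or 8.5 over all probes in each group. The testes of SF, FF and SS together stood 0.15 log2 units below the T1 gonads in the median member (-0.15), against 0.01 over all probes. With T1 and T2 normalized separately the value was 0.64 in the median member and 0.66 over all probes. The 2 samplings then have no common scale, so these values do not measure a change with age.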

How the data were processed

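The members and lists were chosen with earlier results of these data known. The authors deposited the scanner output of 35 one-colour Agilent arrays (Feature Extraction 10.7.3.1 in the file headers), in which each spot has a median signal intensity and a local background intensity on a linear scale, and a matrix of log2 values that the authors had corrected with normexp and quantile normalized. The rule was applied to that matrix, and 98.35% of its values were within 0.1 of those computed here. The values used for all other results came from the scanner output: normexp correction of the intensities (offset 50), 1 quantile normalization over the 35 arrays, removal of 2763 flagged spots, log2, and the median of the spots of each probe. A flagged spot left CUST_2645_PI415922062 without a value in F5 and CUST_4492_PI415922062 without one in F4. The largest deviation of CUST_2645_PI415922062 from its F median was then -0.33 log2 units, in F6. In CUST_20049_PI416070213 the SD over F was 0.628 in the matrix and lowest of all members, 0.17, in the values computed here. CUST_20049_PI416070213 and CUST_2645_PI415922062 thus varied little over F in the values used here, but they remain in all counts of members.

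The 4 comparisons of groups were fitted in R 4.3.3 by limma 3.58.1 (linear models with moderated variance, without covariates) over all 24200 probes, with Benjamini-Hochberg adjustment, a fold change of at least 1.5 and an adjusted P under 0.01. The arrays of a group are separate fish, but those of a T2 group shared a tank. The tests at T2 treat these fish as independent, and the part of the tank was not tested. The test was tried on simulated data. The number of arrays limits the precision. Named are the 10 members with the largest SD over F, the 2 on each side of the limit, the called or smallest-P members of each comparison, and the 2 with the largest SD within S. Alternatives are under the closing section. No per-array column was left out. No sequence was printed because no file used here holds one.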

Additional observations from a re-analysis of the deposited data

Results flagged for a closer look

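In groups of 4 to 10 arrays, each named probe was checked for 1 array far from the others by the gap to its neighbour relative to the range. Of 102 such groups over 17 named probes, 12 were marked, and chance marks about 1 in 20 groups. Of the 12, 9 lay within F, where the members had been chosen for their spread. F7 was set apart at 12.06 for CUST_287_PI416070213, at 12.75 for CUST_3088_PI416070213, at 11.8 for CUST_2450_PI416070213, at 12.69 for CUST_11658_PI416070213, at 11.07 for CUST_8570_PI416070213 and at 9.48 for CUST_9213_PI416070213. F6 was set apart at 12.53 for CUST_15510_PI416070213, at 9.67 for CUST_14339_PI416070213 and at 9.93 for CUST_2786_PI416070213. Outside F, S6 was set apart for CUST_8570_PI416070213 (9.41), S2 for CUST_15119_PI416070213 (9.17) and SF3, on the low side, for CUST_9213_PI416070213 (7.54).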

How the results depend on the processing

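The members themselves depended on the rule. With the median absolute deviation in place of the SD 77 of the 200 were kept, with a level limit of 10 only 23, and with an F array left out 150 (F7) to 185 (F1). With the spots of rows 1 to 30 left out, a setting chosen after seeing the data, 152 were kept. For F vs. S no setting called a member except the S arrays of the other scan day (3 of 200, against 1248 of 24200 probes). For FF vs. SS the 1 call became 0 with an offset of 0, the processed signal scaled to the 75th percentile, all 6 groups in 1 fit, slide as a random block, only probes well above background, members whose spots disagree left out (a setting chosen after seeing the data), and any array left out (0 to 0). Array weights raised it to 4 of the 200 members, and the calls over all 24200 probes from 24 to 191. With the replicate block it was 0, as were the calls over all probes (24 without it), which lay between 0 and 191 over all settings. For SF vs. SS array weights gave 1 (116 over all probes) and leaving out SS1 gave 1 (67 over all probes, range of the members 0 to 1). With 10 arrays left out in turn SF vs. FF stayed at 0. Neither the labels nor the study pair the fish by replicate number. Same-numbered arrays had correlations over 0.1 in 3 of 7 pairs for F vs. S and in 2 of 5 for FF vs. SS. The counts were 3 of 5 for SF vs. SS and 4 of 5 for SF vs. FF, which does not settle whether same-numbered arrays belong together. The replicate block called no member in the other 3 comparisons. The median SD within S was 0.43, and 0.514 with normexp on the foreground alone, 0.835 with the processed signal (all probes 0.59), 0.369 with T1 and T2 normalized separately (all probes 0.25), and 0.412 to 0.427 with an array left out. The median SD within F without F7 was 0.674, and 1.155 with the processed signal, and 0.516 to 0.719 with a further array left out (lowest without F4). The correlation with other probes stayed between 0.949 and 0.978 with an array left out. The same array was left out for every member, and most members then kept their own farthest array. The range therefore cannot show how the correlation fares without that array. Normalizing T1 and T2 separately put the median member 0.64 higher at T2 and all probes 0.66 higher, since each sampling then has its own scale. The cause of the other changes was not tested. Low signal limits the precision, since 29.5% of the members were well above background on all 15 T1 arrays.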
